A study of Arabidopsis thaliana with 10 samples.

Results

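The genes described here were the B-type cyclins and the B-type cyclin-dependent kinases (CDKB) of Arabidopsis thaliana: 4 genes of the CYCB1 group, 4 of the CYCB2 group and the kinases CDKB1;1 and CDKB2;1. They were chosen by gene identifier and make up 10 of the 37328 genes in the expression tables. In the allele tables, 8 of the 10 held reads that could be assigned to a parent. CYCB1;2 and CDKB2;1 held 0 such reads in every library, although their transcripts were measured in the expression tables.

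Messenger RNA had been sequenced from hand-dissected endosperm, the tissue that nourishes the embryo inside the seed. Both crosses of the series had a Ler mother and a 4N (tetraploid) Col father, and the father was wild type in the lethal group and an nrpd1 mutant in the viable group. NRPD1 is the largest subunit of RNA polymerase IV, which starts RNA-directed DNA methylation. The mother was not labelled as a mutant, so by the labels the mutation came in through pollen alone. Each group held 5 samples from 3 replicates, because replicates 1 and 2 were sequenced in 2 parts each. Flowers had been emasculated 2 days before pollination, and seeds pooled from several plants were taken 7 days after pollination, except that 1 part of lethal replicate 1 was labelled day 8. The text of the series gives day 6. The balanced group came from other series, was used here through the authors' pool of its 5 replicates, since its single replicates are not samples of this series, and has no genotype label in the sources used here. It differed from the other groups in series and libraries as well as in paternal dosage, which cannot be told apart.

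B-type cyclins accumulate shortly before mitosis, bind cyclin-dependent kinases and are destroyed by the anaphase-promoting complex so that cells can leave mitosis. CDKB kinases are found in plants and, unlike CDKA, are themselves expressed mainly from S phase to mitosis. Three-repeat MYB factors control many of these genes through elements in their promoters. Arabidopsis endosperm first divides its nuclei without walls and then cellularizes, and paternal excess is known to delay or prevent that step.

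Reads in genes that were assigned to an allele numbered 5692640 to 7983669 per library, and 3 reads, the upper 95% limit for a count of 0, equalled 0.376 to 0.527 CPM (counts per 1e+06 gene reads). Replicate 3 of both groups stood apart. The 20 most abundant genes took 16.4% of reads in lethal replicate 3 and 19.9% in viable replicate 3, against 9.80% to 10.3% elsewhere, and fewer genes had a read (15829 and 13465, against 16560 to 17246). Paternal reads of NRPD1 made up 57.7%, 58.2% and 49.6% in lethal and 33.5%, 30.3% and 46.2% in viable replicates 1, 2 and 3, so the share was lower in each viable library.

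Most B-type cyclin transcripts stood lower in lethal endosperm than in balanced endosperm, and at or above the balanced level in viable endosperm, but few single genes passed a test. In the authors' deposited table of lethal against balanced, 0 of the 10 genes were higher and 2 lower at q under 0.05, where 34.1% of all 23552 tested genes were called (17.5% higher and 16.6% lower). For viable against balanced 1 was higher and 0 were lower, where 27.0% of 23073 tested genes were called in the authors' deposited table (14.2% higher and 12.9% lower). In both comparisons the share of members called was below the background.

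In value, 8 of 10 members lay below balanced in lethal endosperm and 8 of 10 above it in viable endosperm, where 52.3% and 51.1% of all tested genes lay above it in the authors' deposited tables. The median log2 differences of the members were -0.46 and 0.15, against 0.06 and 0.01 over all tested genes in the authors' deposited tables. By group the medians were -0.16 and 0.43 for CYCB1, -0.90 and 0.14 for CYCB2, and -0.09 and 0.14 for the kinases. Lethal endosperm was thus lowest for the CYCB2 group, and both comparisons share the same balanced values. Summed over the 10 genes, the authors' deposited tables gave 245.9 FPKM against 230.1 in lethal, and 246.2 against 317.2 in viable endosperm, the first of each pair being balanced. In these bulk samples fewer dividing cells and less RNA per cell cannot be told apart. At q under 0.01 the lethal count fell to 1 and the viable count to 0. The share of all tested genes called at that threshold is not given here, so this drop cannot be set against it.

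The direct comparison of viable with lethal endosperm asked whether the paternal nrpd1 mutation goes with another level of these genes at the same paternal dosage. Transcripts of 9 of the 10 genes were higher in viable endosperm in value, and 1 of them, CYCB2;1, passed the authors' test. So 1 of 10 was called higher and 0 lower, where 2.51% of 24437 tested genes were called (1.74% higher and 0.769% lower) and 47.2% lay above 0 in the authors' deposited table. The median log2 difference was 0.71 over the members, against -0.04 over all tested genes in the authors' deposited table. It was 0.61 over CYCB1, 0.96 over CYCB2 and 0.23 over CDKB1;1 with CDKB2;1. CDKB1;2 and CDKB2;2, which are not members, were at -0.29 and -0.11.

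That comparison was repeated on the allele-assigned reads of the single libraries, given as CPM with TMM scaling, with edgeR's quasi-likelihood F test across 12674 genes. All 8 members with allele reads passed the filter on low counts. At an adjusted p under 0.05 edgeR called 0 of them, as it did 0.0% of all genes, and at an unadjusted p under 0.05 there were 2 members and 865 genes, 6.82% of all. DESeq2 called 0 of the members too, and 199 genes in all. With the replicate number as a block, edgeR called 117 genes and again 0 members, as in each of 11 alternatives. In value 7 of 8 members were higher in viable endosperm, with a median log2 difference of 0.81, against 46.3% of all genes and a median of -0.05.

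Every viable library lay above every lethal one for 4 of 8 members, which were the 4 CYCB2 genes, as for 6.89% of all genes. For CYCB2;3 this rests on libraries that are equal at the printed digits. Every viable library lay below every lethal one for 0 of 8, against 6.99% of all genes. With scaling by library size alone CYCB1;1 joined the CYCB2 genes, and 7.14% of all genes separated that way. Nothing in the labels says that the replicates were separate biological samples, so the p-values measure the spread between these libraries. The median coefficient of variation was 27.1% in lethal and 26.4% in viable endosperm for the members, against 38.3% and 33.3% for all genes in the same range of reads.

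**Figure D1:**
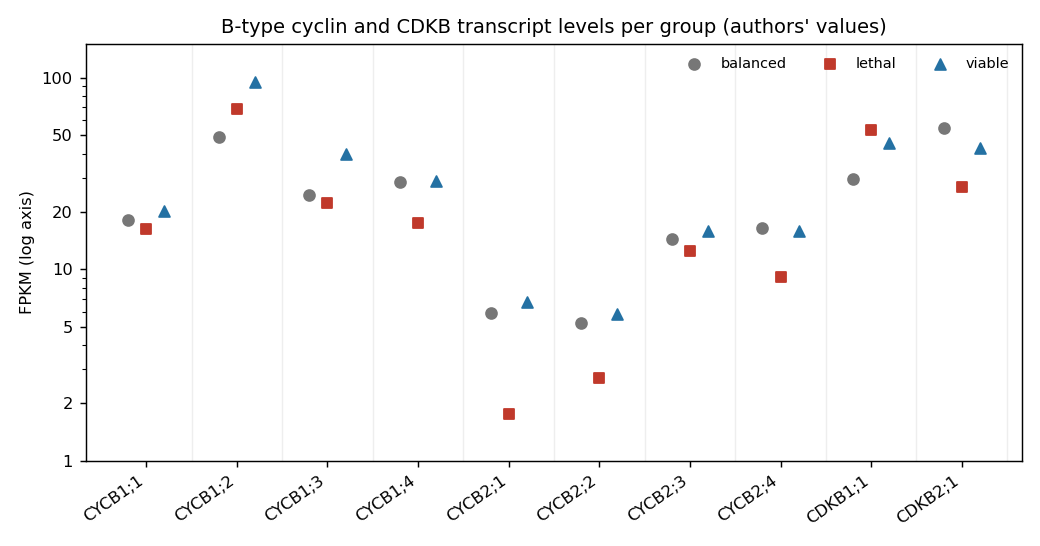
Transcript levels of the 10 genes in FPKM (log axis) in the authors' deposited tables, with 1 point per group and no replicate spread: grey circles for balanced, red squares for lethal and blue triangles for viable endosperm. Lethal is the lowest of the 3 groups for every gene except CYCB1;2 and CDKB1;1, and the gap is widest for CYCB2;1 (5.88, 1.76 and 6.78 FPKM).

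Levels of different genes can be set side by side as FPKM, which are scaled to transcript length. Each is 1 value per group with no spread, so neighbours in the order of levels cannot be separated by error. All CYCB2 genes lay below all CYCB1 genes in each of the 3 groups in the authors' deposited tables. CDKB2;1 was the highest of the 10 in balanced endosperm and CYCB1;2 in both paternal-excess groups. The lowest place belonged to CYCB2;2 in balanced and viable endosperm and to CYCB2;1 in lethal endosperm.

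Gene by gene, the FPKM that follow are those of balanced, lethal and viable endosperm in that order from the comparisons with balanced, with q for lethal and for viable against balanced. CPM are those of replicates 1, 2 and 3, are not scaled to length and are compared only within a gene.

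The CYCB1 group includes CYCB1;1 (AT4G37490, chr4:17621886-17624308 in TAIR10), a widely used reporter of mitosis that also acts with CDKB1 in the repair of DNA breaks. It stood at 18.1, 16.2 and 20.2 FPKM in the authors' deposited tables (q = 0.753 and 0.784), and q was 0.962 between viable and lethal endosperm. The 3 values lay close together and no test passed. In single libraries it stood at 5.67, 6.24 and 9.85 CPM in lethal and 8.69, 11.1 and 18.6 CPM in viable endosperm. The groups overlapped by viable replicate 1 alone, and viable was the higher library in each of the 3 pairs of equal number, with means of 7.25 ± 2.27 and 12.8 ± 5.16 CPM (SD, n = 3 each) and a log2 difference of 0.82 ± 0.47 (SE, adjusted p = 0.839 by edgeR). Without viable replicate 3 the log2 difference was 0.46.

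CYCB1;2 (AT5G06150, chr5:1859279-1861703) acts redundantly with the former in dividing cells. It stood at 49.0, 68.6 and 95.2 FPKM in the authors' deposited tables. It was the only member higher than balanced at q under 0.05 in either group, 1.94-fold in viable endosperm (q = 0.0380), while lethal endosperm had q = 0.353 in the authors' deposited table. Its lethal level of 74.4 and viable level of 103 FPKM, when compared directly in the authors' deposited table, did not pass (q = 0.881).

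CYCB1;3 (AT3G11520, chr3:3625286-3627273), a close relative of both, stood at 24.5, 22.1 and 40.0 FPKM in the authors' deposited tables (q = 0.801 and 0.136), and went from 23.9 in lethal to 43.3 in viable endosperm in the direct comparison (q = 0.373). In the libraries it stood at 15.2, 36.7 and 83.7 CPM in lethal and 53.6, 80.8 and 122.6 CPM in viable endosperm. Lethal replicate 3 lay above viable replicates 1 and 2, so the groups overlapped, while viable was the higher library in each of the 3 pairs of equal number. The means were 45.2 ± 35.03 and 85.7 ± 34.8 CPM, and the log2 difference was 0.92 ± 0.59 (adjusted p = 0.886 by edgeR), 1.16 with the replicate number as a block (adjusted p = 0.159, the lowest of 11 alternatives, which ran up to 0.9999). It was 1.43 without replicate 3 of both groups, 1.72 without lethal replicate 3, 0.54 without lethal replicate 1 and 0.58 without viable replicate 3.

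CYCB1;4 (AT2G26760, chr2:11401118-11403433) is the remaining gene of the group. It stood at 28.5, 17.4 and 29.0 FPKM (q = 0.127 and 0.967), and went from 18.9 in lethal to 31.6 in viable endosperm in the direct comparison (q = 0.497), in the authors' deposited tables. Lethal endosperm was thus the low group in value, without passing. In the libraries it stood at 7.35, 6.24 and 9.25 CPM in lethal and 9.98, 13.7 and 7.51 CPM in viable endosperm. Viable replicate 3 fell among the lethal libraries, and the log2 difference of 0.45 ± 0.43 (adjusted p = 0.946 by edgeR) became 0.84 without replicate 3 of both groups and 0.20 without viable replicate 2.

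The CYCB2 group holds the other large set of mitotic B-type cyclins, led here by CYCB2;1 (AT2G17620, chr2:7664055-7666522). It stood at 5.88, 1.76 and 6.78 FPKM in the authors' deposited tables, and was 3.34-fold lower in lethal than in balanced endosperm (q = 0.00286), while viable endosperm did not pass (q = 0.761). In the authors' deposited table of the direct comparison it went from 1.91 to 7.33 FPKM, 3.83-fold higher in viable endosperm (log2 difference 1.94, q = 0.00417). Lethal endosperm was thus the lowest of the 3 groups, and passed against each of the others.

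In single libraries this gene stood at 4.34, 2.08 and 3.64 CPM in lethal and 5.95, 8.99 and 9.30 CPM in viable endosperm. Every viable library was above every lethal one. These values rest on 36, 16 and 24 reads in lethal and 37, 63 and 52 reads in viable libraries. The means were 3.35 ± 1.16 and 8.08 ± 1.85 CPM, a log2 difference of 1.26 ± 0.52 with an unadjusted p = 0.0376 and an adjusted p = 0.694 by edgeR. The gene called by the authors' test on FPKM was therefore not called on its allele reads. Without replicate 3 of both groups the log2 difference was 1.24.

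CYCB2;2 (AT4G35620, chr4:16901596-16904001) stood at 5.25, 2.69 and 5.83 FPKM (q = 0.103 and 0.826), and went from 2.92 to 6.29 FPKM between lethal and viable endosperm (q = 0.338), in the authors' deposited tables. In the libraries it stood at 2.65, 2.34 and 1.82 CPM in lethal and 5.31, 3.57 and 4.47 CPM in viable endosperm, from 12 to 33 reads each. The groups did not overlap. The means were 2.27 ± 0.421 and 4.45 ± 0.872 CPM and the log2 difference 0.96 ± 0.57 (adjusted p = 0.853 by edgeR).

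CYCB2;3 (AT1G20610, chr1:7134659-7137828) stood at 14.4, 12.5 and 15.8 FPKM (q = 0.708 and 0.824), and went from 13.6 to 17.1 FPKM between lethal and viable endosperm (q = 0.957), in the authors' deposited tables. In the libraries it stood at 42.6, 51.9 and 62.8 CPM in lethal and 62.8, 77.5 and 71.1 CPM in viable endosperm. The highest lethal and the lowest viable library were level after rounding. The log2 difference was 0.43 ± 0.31 (adjusted p = 0.908 by edgeR).

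CYCB2;4 (AT1G76310, chr1:28627694-28630789) stood at 16.4, 9.12 and 15.9 FPKM (q = 0.10 and 0.952), and went from 9.91 to 17.3 FPKM between lethal and viable endosperm (q = 0.50), in the authors' deposited tables. In the libraries it stood at 12.2, 12.9 and 18.2 CPM in lethal and 26.1, 22.4 and 26.8 CPM in viable endosperm. The groups did not overlap, and the viable libraries lay close together. The means were 14.4 ± 3.29 and 25.1 ± 2.36 CPM, and the log2 difference was 0.80 ± 0.35 (unadjusted p = 0.0468, adjusted p = 0.727 by edgeR).

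CDKB1;1 (AT3G54180, in the shared locus chr3:20059671-20064161) works with CYCA2 cyclins to keep cells in the mitotic cycle and out of endoreduplication. It stood at 29.5, 53.0 and 45.4 FPKM (q = 0.391 and 0.552), and at 57.5 in lethal and 49.0 in viable endosperm in the direct comparison (q = 0.998), in the authors' deposited tables. Among the 10 genes it was the one with a lower value in viable than in lethal endosperm. In the libraries it stood at 7.47, 10.7 and 19.1 CPM in lethal and 8.37, 7.85 and 19.5 CPM in viable endosperm. Replicate 3 was the highest in both groups and the other libraries lay close together. The log2 difference was -0.06 ± 0.53 (adjusted p = 0.999 by edgeR), and its sign turned when lethal replicate 3 (0.38), viable replicate 1 (0.13) or viable replicate 2 (0.15) was left out.

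CDKB2;1 (AT1G76540, in the shared locus chr1:28718069-28722550) is needed for division in the shoot meristem. It stood at 54.4, 26.7 and 43.1 FPKM in the authors' deposited tables, and was 2.03-fold lower in lethal than in balanced endosperm (q = 0.0239), with q = 0.537 for viable endosperm. In the direct comparison it went from 29.0 to 46.5 FPKM (q = 0.588) in the authors' deposited table. The kinases thus went opposite ways in lethal endosperm in value. In the authors' deposited tables both share a locus with a neighbour, and the coordinates given are those of the shared locus. Reads may therefore be split within each pair. The neighbour of the first kinase, AT3G54190, was at 43.7 FPKM in balanced and 30.3 in lethal endosperm, and that of the second, AT1G76530, at 0.0981 and 0.0883, in the authors' deposited table. The part of either neighbour in the kinase values was not tested.

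**Figure D2:**
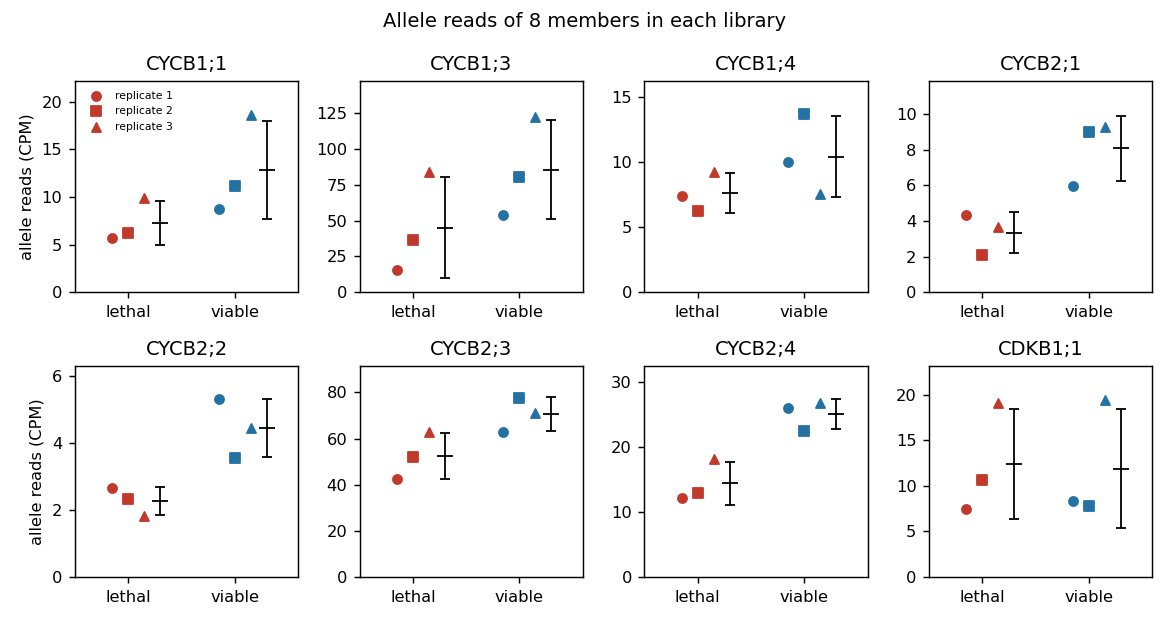
Allele-assigned reads of the 8 genes that have them, in CPM with TMM scaling, for lethal (red) and viable (blue) replicates 1 (circle), 2 (square) and 3 (triangle). Black bars give the mean and SD of 3 libraries. The libraries of the CYCB2 genes separate by group, for CYCB2;3 only by a margin below the printed digits, and those of CDKB1;1 do not. With this scaling replicate 3 is the highest library of both groups for CYCB1;1, CYCB1;3, CYCB2;4 and CDKB1;1. For CYCB2;4 viable replicate 3 nevertheless had the fewest reads of the viable libraries (150, against 162 and 157).

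Parental origin of the transcripts was read from the same allele reads, as the share of Col (paternal) reads among Ler and Col reads. Both parents contributed to each of the 8 genes in every library. With a 4N father and a diploid mother the endosperm has equal numbers of maternal and paternal genome copies, so 50% was taken as the reference, and over all genes the median share was 50% to 51.7% per library. In balanced endosperm, with 2 maternal copies to 1 paternal, the median gene of the pooled reads had 33.7% paternal reads. Between lethal and viable endosperm 0 of 8 shares were called (adjusted p = 0.940 to 0.998 by edgeR), where 0.0786% of 10183 genes were, and 0 of 8 had an unadjusted p under 0.05, against 4.63% of genes.

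Against 50%, 0 of 8 were called in lethal endosperm (adjusted p = 0.338 to 0.999 by edgeR), where 23.1% of genes were called, and 0 of 8 had an unadjusted p under 0.05, against 31.8% of genes. In viable endosperm 0 of 8 were called (adjusted p = 0.102 to 0.998 by edgeR), where 21.6% were, and 1 of 8, CYCB2;3, had an unadjusted p under 0.05 (0.0275), against 31.6% of genes. DESeq2 was not run on the shares.

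This gene, with 353 to 543 reads per library, had narrow intervals, which are 95% Wilson intervals here and cover counting error only. Its paternal share was 38.2% (33.3 to 43.4), 48.6% (43.8 to 53.5) and 49.5% (44.7 to 54.3) in lethal replicates 1, 2 and 3. In viable replicates it was 41.8% (37.0 to 46.7), 36.8% (32.9 to 40.97) and 45.7% (40.9 to 50.6). All 6 libraries were below 50%. The means were 45.5% ± 6.27 and 41.5% ± 4.46 (SD, n = 3 each), and the log2 odds of a paternal read in viable endosperm were -0.50 ± 0.19 (SE, adjusted p = 0.102 by edgeR). The test was passed without viable replicate 3 (adjusted p = 0.0490) and without replicate 3 of both groups (adjusted p = 0.0284), and over all alternatives the edgeR adjusted p ranged from 0.0284 to 0.376. In these 2 fits 2344 of 10831 genes and 2746 of 11155 genes passed as well, so passing was common there.

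CYCB1;3, also with many reads, had 50.8%, 42.2% and 46.9% paternal reads in lethal and 52.0%, 52.3% and 46.4% in viable replicates 1, 2 and 3. These values lie on both sides of 50%. CYCB1;1 was the member with the highest mean share, at 72.3%, 52.1% and 60% in lethal and 70.4%, 57.7% and 65.4% in viable libraries. All 6 were above 50% but rest on 47 to 104 reads each, and neither group passed against 50% (adjusted p = 0.338 and 0.197 by edgeR). CYCB2;1 had 47.2%, 62.5% and 37.5% in lethal and 51.4%, 52.4% and 46.2% in viable libraries, on either side of 50% in both groups.

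The shares of CYCB2;4 were 46.5%, 58.6% and 45% in lethal and 50.6%, 50.3% and 34.7% in viable libraries, and those of CDKB1;1 were 41.9%, 53.7% and 63.5% in lethal and 50%, 54.5% and 43.1% in viable libraries. Both genes had libraries on either side of 50% in lethal endosperm. CYCB2;2 had 27.3%, 38.9% and 25% in lethal and 51.5%, 64.0% and 12% in viable libraries, and CYCB1;4 had 40.98%, 50% and 65.6% in lethal and 46.8%, 53.1% and 11.9% in viable libraries.

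Viable replicate 3 thus gave the lowest share of the 3 viable libraries for this pair of genes, at 3 of 25 reads (Wilson 4.17% to 30.0%) and 5 of 42 reads (5.19% to 25%). The same library was also the lowest viable one for CYCB1;3, CYCB2;1, CYCB2;4 and CDKB1;1, but not for CYCB1;1 or CYCB2;3. Low shares were frequent in that library. Of its 2990 genes with 20 to 60 reads, 20.8% had at most 12% paternal reads, against 5.95% to 9.84% in the other libraries. Its shares were spread wider on both sides of a median of 50.3%. Over 10183 genes its quartiles were 36.2% and 63.7%, where the other libraries had 41.2% to 45.0% and 57.8% to 59.5%. The part of that library in the shares of the pair was not tested beyond leaving it out.

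**Figure D3:**
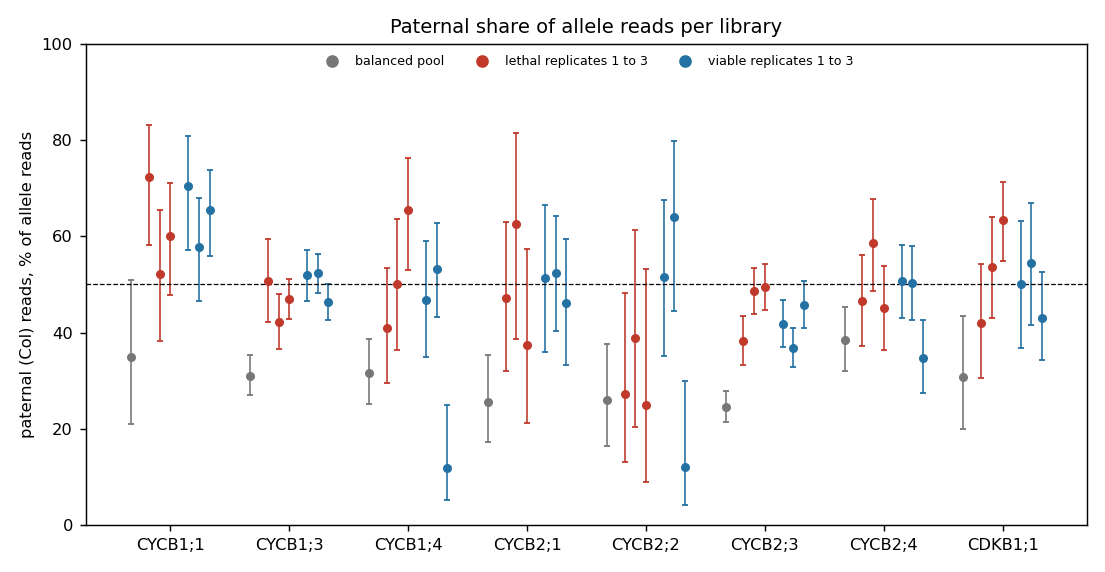
Paternal share of allele reads (percent Col reads) for 8 genes, with the balanced pool in grey, lethal replicates 1 to 3 in red and viable replicates 1 to 3 in blue, from left to right. Bars are 95% intervals for counting error (Clopper-Pearson for the pool, Wilson for libraries), and the dashed line marks 50%. The balanced pool lies between 24.5% and 38.5%, and viable replicate 3 drops to 11.9% and 12% for CYCB1;4 and CYCB2;2.

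In the balanced pool the paternal share was 24.5% for CYCB2;3 (167 of 682 reads, Clopper-Pearson 21.3% to 27.9%) and 31.0% for CYCB1;3 (157 of 506 reads, 27.0% to 35.3%). The other 6 genes lay between 25.5% and 38.5% on 43 to 221 reads each. Both intervals exclude the values of all 6 paternal-excess libraries for these genes. A gap in this direction is not particular to them, since the median gene had 33.7% in the pool and 50% to 51.7% in those libraries. The single balanced replicates were not used here, so the spread of the balanced shares is not given and no test was run.

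The remaining genes of the same families and CDKA;1 had other levels. CYCB3;1, a B-type cyclin of another group known for its role in meiosis, rose from 3.23 FPKM in balanced to 9.12 in lethal (2.82-fold, q = 0.00120) and 9.28 in viable endosperm (2.87-fold, q = 0.00257) in the authors' deposited tables. CDKB1;2 and CDKB2;2 are the paralogues of the kinase members. The first stood at 12.3 FPKM in balanced, 29.7 in lethal (q = 0.0525) and 24.4 in viable endosperm (q = 0.141), in the authors' deposited tables. The second stood at 10.0 FPKM in balanced, 24.0 in lethal (q = 0.191) and 22.4 in viable endosperm (q = 0.0836), in the authors' deposited tables. Neither paralogue passed. CDKA;1, present throughout the cell cycle, stood at 45.3, 35.2 and 33.6 FPKM in the same order (q = 0.489 and 0.386) in the authors' deposited tables. Between viable and lethal endosperm the edgeR log2 difference was -0.06 for CDKA;1, -0.30 for the first paralogue and -0.43 for the second (adjusted p = 0.999, 0.970 and 0.919), and CYCB3;1 had no allele reads.

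Other cell cycle genes were followed as 9 lists, counted here from the authors' deposited tables against the same backgrounds. The CDK inhibitors, which block CDK activity, had 2 of 10 higher and 6 lower than balanced in both paternal-excess groups (median log2 differences -1.74 and -1.77). KRP6, an inhibitor of CDK and cyclin complexes, was at 40.3 FPKM in balanced, 1.57 in lethal (25.6-fold lower) and 2.86 in viable endosperm (14.2-fold lower), in the authors' deposited tables. KRP1, of the same family, was at 19.5, 1.12 and 2.70 FPKM in the authors' deposited tables. Among 6 other mitotic CDK and cyclin genes 1 was higher and 2 lower in both groups (medians 0.45 and 0.28). The lower ones were the genes of the CDK-binding proteins CKS1, at 256, 46.0 and 66.6 FPKM, and CKS2, at 122, 25.7 and 48.4 FPKM, in the authors' deposited tables.

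The other lists are given in the same way, beside 17.5% of all tested genes higher in lethal and 14.2% higher in viable than in balanced endosperm. Of 5 three-repeat MYB genes 2 were higher in lethal and 3 in viable than in balanced endosperm and 0 were lower (medians 1.12 and 1.21), with MYB3R3 at 4.60, 18.9 and 14.5 FPKM in the authors' deposited tables. Of 7 E2F, DP and RBR genes, which control entry into S phase, 2 and 3 were higher and 0 lower (medians 1.07 and 1.04). Of 10 DNA replication genes 5 and 6 were higher and 0 lower (medians 1.22 and 1.38), with the helicase subunit gene MCM2 at 11.6, 51.9 and 52.2 FPKM in the authors' deposited tables. Another list held 18 genes of the anaphase-promoting complex, which destroys B-type cyclins, and of regulators that activate or inhibit it. Of these, 4 were higher and 1 lower in both groups (medians 0.24 and 0.53). CDC27A, a subunit gene of the complex, was at 4.60, 28.3 and 24.0 FPKM in the authors' deposited tables.

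Of 9 A-type cyclins tested 3 were higher and 1 lower in lethal, and 3 higher and 0 lower in viable endosperm (medians 0.24 and 0.80). The D-type cyclins, which act before S phase, had 2 higher and 2 lower of 9 tested in the lethal group, and 2 higher and 1 lower of 10 in the viable group (medians -0.08 and 0.85). CYCD4;2 had the lowest q in both comparisons, at 2.10, 99.2 and 51.7 FPKM in the authors' deposited tables.

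Genes of the mitotic spindle and cytokinesis had the highest median of these lists between viable and lethal endosperm. Of 15, 2 were higher and 3 lower in lethal, and 3 higher and 1 lower in viable than in balanced endosperm (medians -0.20 and 0.62). Between viable and lethal endosperm 3 of 15 were higher and 0 lower, 13 lay above 0 and the median was 0.88 in the authors' deposited table. These 3 were the microtubule-bundling gene PLE (5.31 to 15.4 FPKM, q = 0.00417), the kinesin gene HIK (5.46 to 14.8 FPKM, q = 0.0128) and the cytokinesis syntaxin gene KN (101 to 302 FPKM, q = 0.0219), as the authors' deposited table gives them. Over the 8 other cell cycle lists 1 gene was called there, CYCD1;1 (0.678 to 2.59 FPKM, q = 0.0425), and their medians ran from -0.27 to 0.33 in the authors' deposited table. On allele reads 9 of 10 spindle and cytokinesis genes lay above 0 (median 1.09), and edgeR called 0 of them, with 3 at an unadjusted p under 0.05. KN, AUR2, AUR3, TPX2 and BUBR1 had 0 allele reads in every library, so KN was not tested there.

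**Figure D4:**
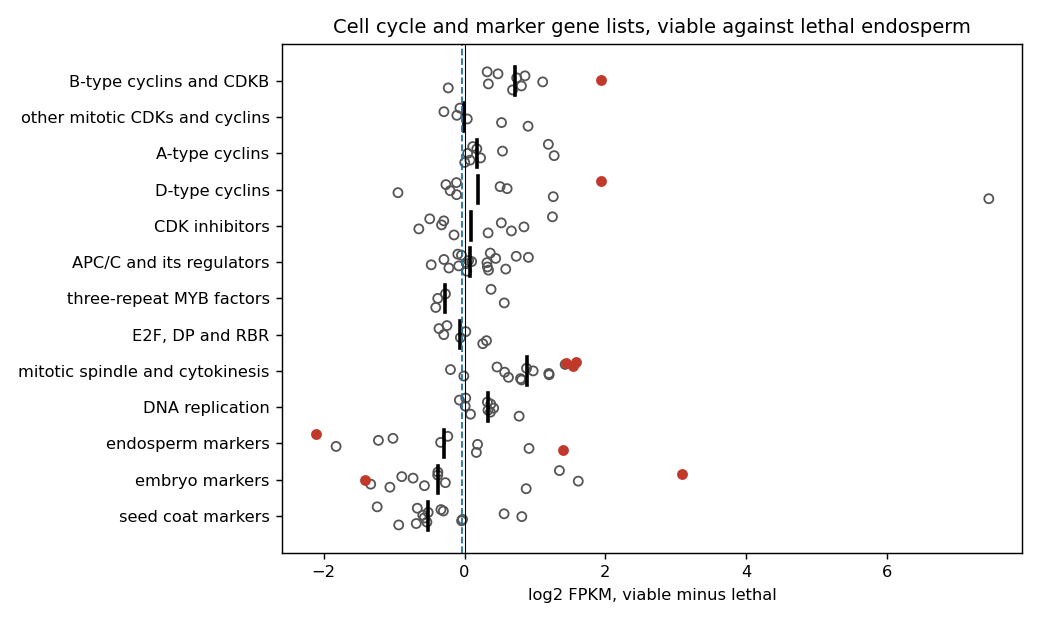
Log2 difference in FPKM between viable and lethal endosperm (positive: higher in viable) for the members and 12 other gene lists in the authors' deposited table. Each circle is a gene, red if q is under 0.05, black bars are list medians, and the dashed line is the median of all tested genes (-0.04). The medians of the B-type cyclins and CDKB genes (0.71) and of the spindle and cytokinesis genes (0.88) lie farthest to the right.

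The 5 genes whose library profile was most like the mean of the 8 members, over 6 libraries and by Pearson's r among 12666 genes, were AT2G03370 (r = 0.994), emb2737 (r = 0.992), AGP16 (r = 0.992), DOF6 (r = 0.992) and ENODL3 (r = 0.989). With 6 libraries high values are frequent, and 227 genes had r above 0.9. AGP16, an arabinogalactan protein gene, stood at 9.16, 13.0 and 38.4 CPM in lethal and 43.3, 58.9 and 112 CPM in viable libraries. ENODL3, an early nodulin-like gene, stood at 213, 273 and 895 CPM in lethal and 1172, 1187 and 2021 CPM in viable libraries. In both, as in the mean of the members, lethal replicate 3 was the highest lethal library and viable replicate 3 the highest of all. The genes were picked by this likeness, so the shared order follows from the choice.

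The label of the tissue was set against marker lists, since dividing cells of the embryo and the seed coat also express B-type cyclins. Endosperm markers at 1 FPKM or more numbered 5, 9 and 6 of 10 in the balanced, lethal and viable groups, and IKU2 and MINI3 were listed at 0 in balanced endosperm, in the authors' deposited tables. Embryo markers at that level numbered 6, 4 and 5 of 17 and seed coat markers 12 of 14 in each group, with sums of 324.8, 336.1 and 266.1 FPKM for the seed coat in the authors' deposited tables. Seed coat markers were therefore present in every group. In the allele reads the summed endosperm markers ran from 277 to 593 CPM in lethal and 564 to 810 CPM in viable libraries, with MEA at 0 in all. The summed embryo markers ran from 43.96 to 169 CPM in lethal and 60.1 to 73.9 CPM in viable libraries, with WUS, CUC1 and PLT2 at 0 in all. The summed seed coat markers ran from 649 to 929 CPM in lethal and 476 to 593 CPM in viable libraries, with TT2, TT12 and AHA10 at 0 in all.

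Of 14 seed coat markers tested 0 were called between viable and lethal endosperm and 12 were lower in viable endosperm (median -0.53) in the authors' deposited table. Against balanced, 0 were higher and 2 of 13 lower in each group. Of the embryo markers tested 6 of 14 were higher and 3 lower in lethal, and 3 of 13 higher and 4 lower in viable than in balanced endosperm, and 1 of 13 was higher and 1 lower between viable and lethal in the authors' deposited tables. The endosperm markers had 4 of 9 higher and 2 lower in the lethal group, 3 of 9 higher and 1 lower in the viable group, and 1 of 10 higher and 1 lower between the groups in the authors' deposited tables. Seed coat markers were thus lower, and most B-type cyclins higher, in viable than in lethal endosperm in value, and the part of other tissues in the cyclin values was not tested.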

How the data were processed

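Endosperm mRNA libraries were made with a low-input polyA kit, per the labels' protocols. The submitters' processing notes list the tools Bowtie, TopHat, Cuffdiff, FastQC and Trim Galore and the build TAIR10, without versions or roles. The authors deposited 1 FPKM value per gene and group in each comparison, with a score (the test statistic) and a p-value and q-value, per the file headers. They also deposited counts of reads assigned to the Ler or Col allele per gene and replicate, and for the balanced pool a total count and a percent of Col reads. How reads were assigned to alleles, and whether strand was used, is not stated in the sources used here. Log2 ratios deposited by the authors were recomputed from the FPKM values, with a positive sign for a higher level in paternal excess, or in viable than lethal endosperm. The 10 columns of single balanced replicates were not used.

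Members and the 12 other lists (132 genes) were chosen with earlier results of these data known. Named besides the members are at most 3 called genes per list with the lowest q, the remaining CYCB and CDKB genes with CDKA;1, and the 5 genes most like the members. A gene was called against balanced if the authors' q was under 0.05. Viable and lethal libraries were compared with edgeR 4.0.16 (R 4.3.3) on Ler plus Col counts by quasi-likelihood F tests, with TMM scaling, filterByExpr and Benjamini-Hochberg adjustment over all genes tested. The SE was taken as the log2 difference divided by the square root of F. Paternal shares were tested in edgeR on separate Ler and Col counts with the library as block, in genes with at least 10 allele reads in all 6 libraries. Depth ran from 5692640 to 7983669 gene reads per library, and intervals are Wilson (libraries) or Clopper-Pearson (pool) at 95%. Reads outside genes (7.25% to 9.66%) were left out. Both fits were tested on simulated data without a replicate effect. Those runs do not show how the fits behave where equal replicate numbers correlate.

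The main fits did not pair the replicates. Equal replicate numbers entered a fit as pairs only in the replicate block alternative. Deviations from group means correlated above 0.1 between equal numbers over 12674 genes (0.114, 0.475 and 0.432). Lethal replicate 2 with viable replicate 1 also gave 0.155. Alternatives were the replicate block, DESeq2 1.42.0, scaling by library size, no count filter, each library left out, replicate 3 left out of both groups, a stricter q of 0.01, FPKM plus 1, at least 50 allele reads and the median share as reference.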

Additional observations from a re-analysis of the deposited data

Results flagged for a closer look

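CYCB2;1 differed between the 2 paternal-excess groups in its change from balanced. In the authors' deposited tables it was 3.34-fold lower than balanced in lethal endosperm (5.88 to 1.76 FPKM), and its viable level of 6.78 FPKM was not called (q = 0.761). The test of the difference itself is the authors' deposited table of viable against lethal endosperm, which gave q = 0.00417. On allele reads the edgeR adjusted p for viable against lethal endosperm was 0.694, so CYCB2;1 was not called there, where 0 of 12674 genes were. The direction was the same, with an unadjusted p of 0.0376 by edgeR. Every viable library lay above every lethal one, as for 6.89% of all genes. No other member met this condition, and groups of 3 libraries are too small for a search for outlying samples.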

How the results depend on the processing

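No member was called between viable and lethal endosperm under any of 11 edgeR or DESeq2 alternatives, and 7 of the 8 log2 differences kept their sign in all of them. CDKB1;1 ranged from -0.606 to 0.382 as libraries were left out and turned positive without lethal replicate 3 (0.382), viable replicate 1 (0.126) or viable replicate 2 (0.154); the cause was not tested. As libraries were left out, the range was 1.01 to 1.53 for CYCB2;1, 0.54 to 1.72 for CYCB1;3, 0.46 to 1.095 for CYCB1;1 and 0.20 to 0.84 for CYCB1;4. Over all genes the count called rose from 0 to 117 with the replicate block, to 199 with DESeq2 and to 81 of 20008 genes with no count filter, and stayed at 0 with each library left out; the cause was not tested. The replicate block changed no member's call in expression or share. Over all genes the shares called between viable and lethal endosperm numbered 8, and 0 with the replicate block, 47 without replicate 3 of both groups and 0 to 26 as single libraries were left out. Members whose share passed against 50% in viable endosperm numbered 0 to 1 as single libraries were left out, and 1 without replicate 3 of both groups, each time CYCB2;3. Over all genes 2344 of 10831 passed without viable replicate 3, and 2746 of 11155 without replicate 3 of both groups. In the authors' deposited tables the members called for lethal against balanced fell from 2 to 1 at q under 0.01, and to 1 without CDKB1;1 and CDKB2;1, an alternative chosen after seeing the data. For viable against balanced the count fell from 1 to 0 at q under 0.01 in the authors' deposited table. The share of all tested genes called at q under 0.01 is not given here. FPKM plus 1 turned no member's direction. CYCB2;1 and CYCB2;2 had 12 to 63 reads per library, which limits what differences and shares of these genes can show.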
